A study of Mus musculus with 30 samples.

Results

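Chemokine receptors and the sphingosine-1-phosphate receptor S1pr1 were followed in the blood of mice injected with melanoma cells. They were 10 genes (Ccr7, Ccr2, Ccr6, Ccr9, Cxcr3, Cxcr4, Cxcr5, Cx3cr1, Ackr3 and S1pr1) of the 54532 gene identifiers in each count table, chosen by name as trafficking receptors with earlier results of these data known, and found by matching Ensembl identifiers to mouse symbols. The study compared RNA of platelets and of peripheral blood mononuclear cells (PBMCs) from female C57BL/6 mice that differed in the number of B16F10 cells, a mouse melanoma line, placed under the skin of the right flank. C group received 100 µl of the saline HBSS without cells. S group (suboptimal inoculation, early tumor in the labels) received 2000 cells, and its mice showed no visible tumor at autopsy. O group (optimal inoculation, large tumor in the labels) received 100000 cells. Blood was drawn on day 14 into EDTA from the retro-orbital sinus. Platelets came from platelet-rich plasma, and PBMCs from the cells below that plasma. Each group had 5 libraries per tissue, 30 in all, and each library was 1 pool of RNA. By the labels a platelet pool held 10 mice in S group, 5 or 10 in C group and 3 to 5 in O group, and a PBMC pool held 3 to 5 mice. The methods of the study give other numbers for some platelet pools of S group. By the study's account the pools of S group included mice that might never have developed a tumor. Among mice it followed after the same dose, most stayed free of a visible tumor. The spread between libraries is the spread between pools.

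Chemokine receptors are G protein-coupled receptors that guide leukocytes along gradients of chemokines, small secreted proteins made by tissues and lymphoid organs. S1pr1 responds to sphingosine-1-phosphate, a lipid that is abundant in blood and lymph, and lets lymphocytes leave lymphoid organs. Ackr3 is an atypical receptor that takes up Cxcl12 without the usual G protein signal. Platelets have no nucleus. They carry RNA received from megakaryocytes, and a platelet preparation can also hold RNA from the leukocytes that share the plasma.

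Platelet libraries held 12259036 to 25360080 counts on genes and PBMC libraries 13390983 to 15973449. The labelled tissues were checked by their markers, and 13 of 13 tested platelet genes were higher in platelet libraries (median log2 difference 4.28), while 12 of 14 T cell genes were higher in PBMC libraries. Leukocyte RNA was present in platelet libraries as well. All 14 T cell markers and all 10 B cell markers had counts in every platelet library. Platelet replicate 5 of S group had the highest or the lowest level of several receptors in its group, and PBMC replicate 3 of S group had counts for 32900 genes against 20540 to 22991 in the other 14 PBMC libraries. Haemoglobin and other erythroid genes varied widely in O group, from 45290 to 745600 CPM (counts relative to library size) summed over the list in platelets. Levels below are CPM scaled with TMM factors within a tissue, unless both tissues are said to be scaled together. Group differences are log2 fold changes ± SE from edgeR's quasi-likelihood test, with the study's threshold of an unadjusted P below 0.05 and the Benjamini-Hochberg adjusted P over all genes tested beside it. A two-sided exact permutation test of the mean log2(CPM + 1) of each receptor, added after the data were seen, is given as exact P, and with 5 against 5 libraries it cannot go below 0.00794. The words higher, rose and fell are used of genes past the unadjusted threshold, and no receptor passed an adjusted threshold of 0.05 in the edgeR fits that compared groups. In 4 cases an alternative did pass it. These were DESeq2 for Ccr7 (adjusted P = 0.0130) and Cxcr5 (adjusted P = 0.0259) in S group against O group platelets and for the difference of Ccr7 between tissues (adjusted P = 0.0379), and edgeR with all genes kept for Cxcr5 in S group against C group platelets (adjusted P = 0.0315).

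Positions are those of GENCODE M21 on GRCm38, matched by gene identifier, since the count tables held no coordinates and the submitters' notes list mm9. The receptors of lymphoid homing were Ccr7 (ENSMUSG00000037944, chr11:99144196-99155077, minus strand), Cxcr5 (ENSMUSG00000047880, chr9:44511787-44561877, minus strand), Cxcr4 (ENSMUSG00000045382, chr1:128588199-128592293, minus strand) and S1pr1 (ENSMUSG00000045092, chr3:115710433-115715072, minus strand). The receptors of effector and mucosal lymphocytes were Cxcr3 (ENSMUSG00000050232, chrX:101731535-101734269, minus strand), Ccr6 (ENSMUSG00000040899, chr17:8236043-8257141, plus strand) and Ccr9 (ENSMUSG00000029530, chr9:123678439-123784330, plus strand). The receptors of monocytes were Ccr2 (ENSMUSG00000049103, chr9:124101950-124113557, plus strand) and Cx3cr1 (ENSMUSG00000052336, chr9:119901616-120069879, minus strand). Ackr3 (ENSMUSG00000044337, chr1:90203980-90216751, plus strand) was the only scavenging receptor. All 10 are protein-coding genes, and each value is the sum over the exons of a gene. The libraries did not keep strand, so reads from overlapping genes could not be told apart. For Ccr9, 18.8% of the exon bases were shared with an annotated gene on the opposite strand, AC165425.1, and for Cxcr5 3.30% were shared with Bcl9l. For Cx3cr1 1.73% were shared with Gm33858, and the other 7 receptors had no such partner.

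Ccr7, Cxcr4 and Cxcr5 are shown here by the primers with which the study measured them by qPCR, because these were the receptors it carried forward from the same libraries, so that their sequencing values are not independent of that choice. The study then reported qPCR of these receptors in a further cohort of mice. Each differed between mice with occult tumors and controls, and between occult and macroscopic tumors. None differed between macroscopic tumors and controls. Those qPCR values were not re-examined here. Each primer pair, written 5′ to 3′, matched an annotated transcript of its gene exactly and bounded a product of 100 to 108 bases downstream of the coding sequence.
Ccr7 forward: cctggttgagtagtcttc
Ccr7 reverse: ttgctaagtgtggagataa
Cxcr4 forward: gtagaactgtagaggaagaa
Cxcr4 reverse: cggaatgaagagattatgc
Cxcr5 forward: atcttcctcctgattatg
Cxcr5 reverse: tattcctctgtggtatag
In the first transcript of each gene the product covered bases 1522 to 1621 for Ccr7, 1431 to 1531 for Cxcr4 and 1469 to 1576 for Cxcr5.

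Per length of exon, Cxcr4, Ccr7 and S1pr1 led the receptors in platelets. Cxcr4 had 14.9 ± 7.28 CPM per kb (SD, n = 15 libraries) and Ccr7 had 14.2 ± 7.51, and these neighbours were not separated, with Cxcr4 above Ccr7 in 8 of 15 libraries. S1pr1 followed with 12.3 ± 2.92 CPM per kb and was not separated from Ccr7 either, which exceeded it in 9 of 15 libraries, while in O group the mean of S1pr1 was above that of Ccr7. S1pr1 was above Cxcr5, at 6.56 ± 3.10, in 15 of 15 libraries. Ccr2 (4.71 ± 2.49), Ccr6 (2.30 ± 1.07), Cx3cr1 (2.08 ± 1.35) and Cxcr3 (1.99 ± 1.05) formed a lower tier, in which Ccr6 exceeded Cx3cr1 in 8 of 15 libraries only. Ackr3 (0.370 ± 0.163) and Ccr9 (0.176 ± 0.0514) were lowest. The reads behind these levels were few for the last pair, between 2 and 47 counts per platelet library for Ackr3 and between 14 and 58 for Ccr9. In PBMCs the order was similar at the top, with Ccr7 at 154 ± 24.7 CPM per kb and Cxcr4 at 132 ± 35.9, Ccr7 being above Cxcr4 in 12 of 15 libraries. S1pr1 (56.9 ± 9.42) and Ccr2 (53.4 ± 12.8) came next and were not separated, with S1pr1 above Ccr2 in 10 of 15 libraries. Cx3cr1 (25.6 ± 4.11) and Cxcr5 (22.5 ± 5.25) followed, then Ccr6 (12.5 ± 1.99), Cxcr3 (10.4 ± 2.40) and Ccr9 (1.02 ± 0.218). Ackr3 had 0 to 9 counts per PBMC library and a mean of 0.0917 ± 0.0888 CPM per kb. The library without a count, replicate 1 of S group, allows a level of up to 0.171 CPM, the value of 3 counts.

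Between the tissues, with the 30 libraries scaled together and group held in the model, 9 of 10 receptors were lower in platelets and 1, Ackr3, was higher, each with an adjusted P below 0.05. Among all 16498 genes tested, 45.2% were lower and 35.8% higher in platelets by the same rule, and the median gene differed by −0.17 on the log2 scale. Cx3cr1, a receptor of patrolling monocytes and NK cells, showed the widest gap among the 9, with 14.2 ± 8.54 CPM in platelets and 74.9 ± 12.5 in PBMCs (SD, n = 15), a level 5.53-fold lower in platelets. Ccr7 (4.97-fold lower), Ccr2 (4.86-fold) and Cxcr4 (3.94-fold) came next. Ccr9 (2.47-fold), Ccr6 (2.35-fold), Cxcr3 (2.32-fold) and S1pr1 (1.98-fold) differed less. Cxcr5, the receptor that brings B cells and follicular helper T cells to follicles, was nearest to parity, with 33.2 ± 14.5 CPM in platelets and 48.7 ± 11.6 in PBMCs (log2 difference −0.62 ± 0.14, edgeR adjusted P = 0.000127). The differences of the marker lists ran beside these. The median log2 difference was −2.34 over 11 monocyte markers, −1.42 over 14 T cell markers and −0.70 over 10 B cell markers. The part of these leukocytes in the receptors' levels was not tested, and in RNA of a mixed sample fewer cells of a type and less RNA per cell cannot be told apart.

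**Figure D1:**
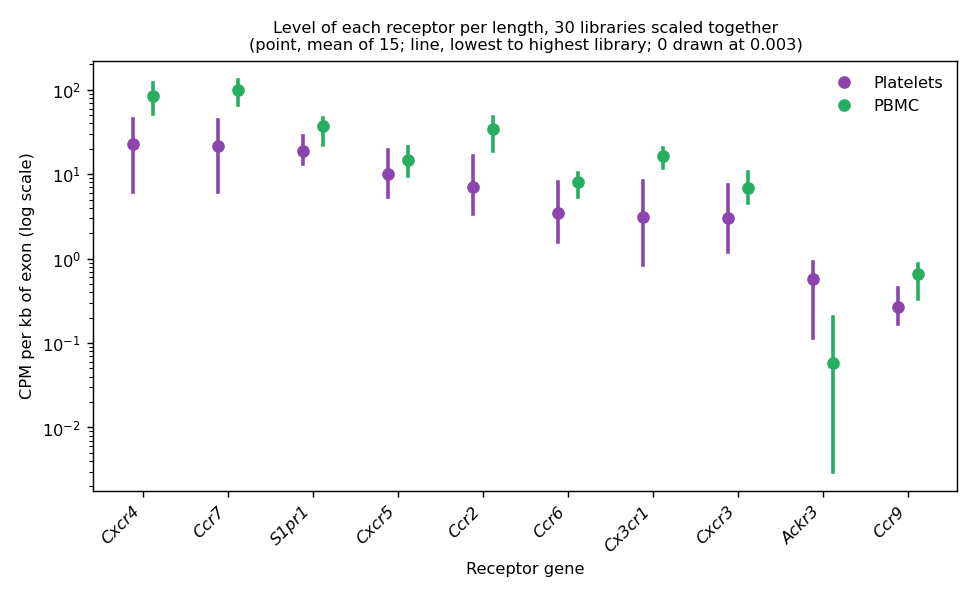
Level of each receptor as CPM per kb of exon (log axis), with the 30 libraries scaled together. Points are means of 15 libraries and lines span the lowest to the highest library. PBMC points lie above platelet points for 9 of the 10 receptors, and Ackr3 is the exception.

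Ackr3 stood at 1.92 ± 0.852 CPM in platelets and 0.194 ± 0.176 in PBMCs (SD, n = 15, both tissues scaled together), a 10.7-fold higher level in platelets (log2 difference 3.42 ± 0.35, edgeR adjusted P = 2.31e-10). The sequence of the 250 bases before its start (RefSeq, GRCm38.p6) is printed with those of Cxcr4 and Cxcr3, which were higher in S group platelets in both comparisons below, to set the receptor of opposite tissue pattern beside members that moved together. RefSeq windows were found for 7 of the 10 receptors. Capitals mark matches on either strand to 6 motifs. The TATA box was searched as TATAAA and the CACCC box as the letters of its name. The core of ETS sites was searched as GGAAGT. The core of RUNX sites was searched as TGTGGT. The core of GATA sites was searched as AGATAA. The GC box was searched as GGGCGG.
Ackr3, chr1:90203730-90203979, plus strand: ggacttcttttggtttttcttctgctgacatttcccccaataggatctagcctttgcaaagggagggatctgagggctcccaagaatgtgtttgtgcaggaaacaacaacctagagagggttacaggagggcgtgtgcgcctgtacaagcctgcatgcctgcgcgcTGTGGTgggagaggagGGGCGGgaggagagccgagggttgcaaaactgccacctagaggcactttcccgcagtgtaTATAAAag
Cxcr4, chr1:128592300-128592549, minus strand: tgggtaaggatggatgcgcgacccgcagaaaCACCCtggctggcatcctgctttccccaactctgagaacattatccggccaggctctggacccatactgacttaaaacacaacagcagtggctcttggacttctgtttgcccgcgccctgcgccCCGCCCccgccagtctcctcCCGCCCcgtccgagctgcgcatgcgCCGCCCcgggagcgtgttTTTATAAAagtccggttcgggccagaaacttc
Cxcr3, chrX:101734148-101734397, minus strand: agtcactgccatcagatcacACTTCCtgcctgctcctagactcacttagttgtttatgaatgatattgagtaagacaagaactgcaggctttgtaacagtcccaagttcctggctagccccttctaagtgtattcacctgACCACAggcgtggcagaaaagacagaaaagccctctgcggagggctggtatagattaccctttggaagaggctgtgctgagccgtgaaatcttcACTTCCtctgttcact
The Ackr3 window held TATAAA beginning 8 bases before the start, 1 GC box and 1 RUNX core. The Cxcr4 window held TATAAA beginning 30 bases before the start, overlapped by its reverse complement, with 3 GC boxes and 1 CACCC. The Cxcr3 window held 2 ETS cores, 1 RUNX core and no TATAAA, and its GC content was 48.0% against 61.2% for Cxcr4 and 54.0% for Ackr3. The RefSeq start of Cxcr3 differs from that of GENCODE M21. Part of its window, chrX:101734148-101734269, therefore lies inside the gene span given above. The ETS core nearest the start and the RUNX core fall in that part. Over 32536 windows of the same length, TATAAA was found in 12.3%, CACCC in 52.1%, the ETS core in 19.8%, the RUNX core in 14.0%, the GATA core in 9.97% and the GC box in 33.0%. A match of letters describes the window and is no evidence of binding.

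In platelets, the question of the design was whether S group differed from both C group and O group. Compared with C group, 5 of 10 receptors were higher in S group (Ccr7, Cxcr5, Cxcr4, Cxcr3 and Ccr6) and 0 were lower. Among all 13268 genes tested, 4.29% were higher and 2.13% lower, and since the receptors were chosen with earlier results known, their count is not independent evidence of a direction. The log2 fold change was above 0 for 10 of 10 receptors, with a median of 0.63 against −0.01 over all genes. Compared with O group, 6 of 10 were higher in S group (Ccr7, Cxcr5, Cxcr4, Cxcr3, Cx3cr1 and S1pr1) and 0 were lower, where 7.23% of 13306 genes were higher and 6.67% lower. The median log2 fold change was 0.75 against −0.01 over all genes. Both comparisons use the same 5 libraries of S group, so they are not independent of each other. No receptor separated the groups without overlap. By the exact permutation test 1 receptor (Cxcr5) passed 0.05 against C group and 3 (Ccr7, Cxcr5 and S1pr1) against O group. With DESeq2, with RLE size factors, with all genes kept and with a block for replicate number, 5 receptors again passed against C group and 6 against O group. With voom 4 passed against C group, Ccr6 being lost, and with all 3 groups in one fit 4 passed, Cxcr4 being lost, while 6 passed against O group with each. With the leukocyte score of a library as a covariate, which is the mean log2(CPM + 1) over 60 leukocyte markers that include no receptor, the counts were 2 (Cxcr5 and Ackr3) and 3 (Ccr7, Cxcr5 and Ackr3). That score pools neutrophil markers with those of the other leukocytes. A score over the 49 other markers, added after the data were seen, was higher in S group than in C group by 0.34 on the log2(CPM + 1) scale (exact P = 0.0873) and than in O group by 0.66 (exact P = 0.0159). With it as a covariate in edgeR 2 receptors (Cxcr5 and Ackr3) passed against C group and 0 against O group, where calls over all genes fell from 962 higher and 887 lower to 280 and 60. The calls over all genes against C group in that fit are not given here, so the 2 receptors stand without a background share.

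**Figure D2:**
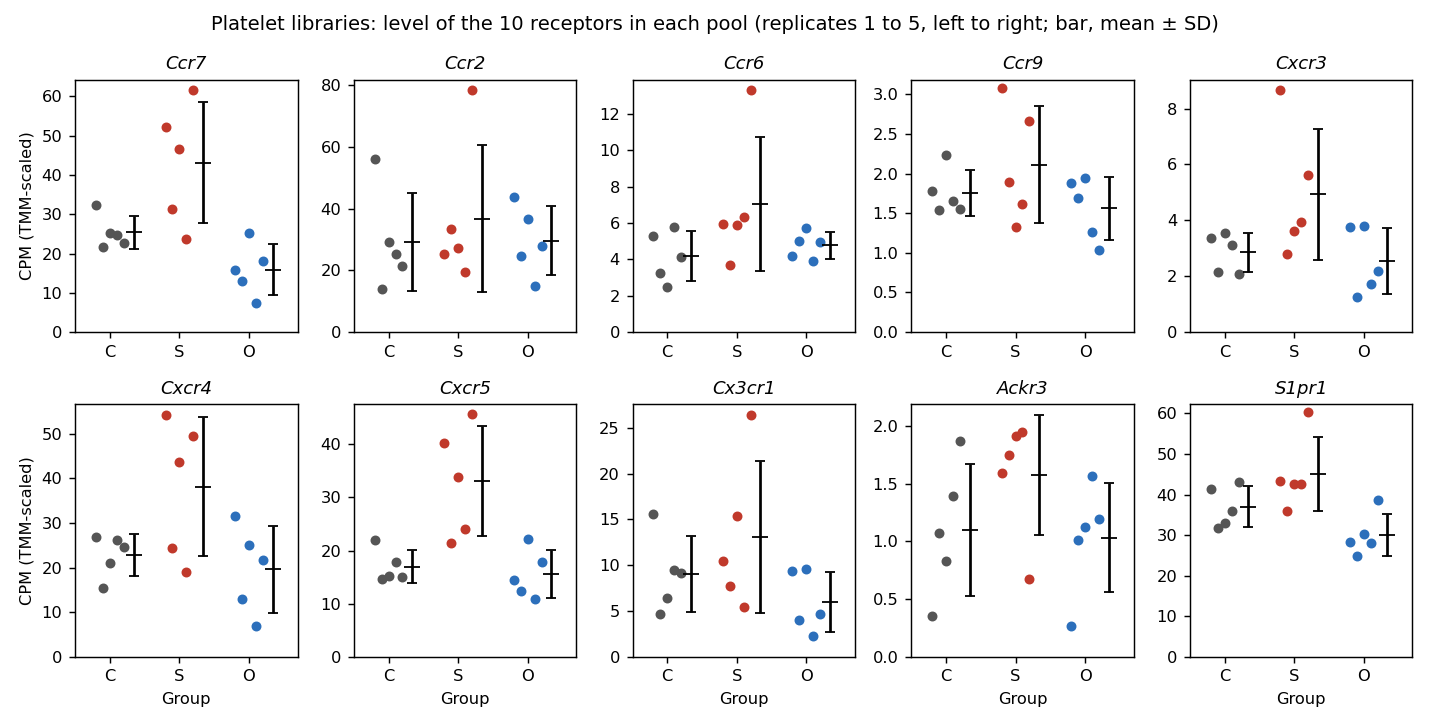
Level of each of the 10 receptors in the 15 platelet libraries, in TMM-scaled CPM, by group. Points are replicates 1 to 5 from left to right and bars are the mean ± SD of 5. The highest library belongs to S group for 10 of 10 receptors, in replicate 1 or 5 for 9 of them, and every panel shows overlap between groups.

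Ccr7, which guides naive T cells, B cells and mature dendritic cells to the T cell zone of lymph nodes, had levels of 32.4, 21.7, 25.3, 24.8 and 22.8 CPM in C group platelets. In S group it stood at 52.2, 31.2, 46.6, 23.8 and 61.6 CPM. In O group it stood at 15.7, 12.9, 25.3, 7.52 and 18.1 CPM. Replicates 1, 3 and 5 of S group were above every other library, while replicates 2 and 4 lay within the range of C group and replicate 4 also within that of O group. Ccr7 was 1.68-fold higher in S group than in C group (log2 fold change 0.75 ± 0.23, P = 0.00512, edgeR adjusted P = 0.746, exact P = 0.0556). It was 2.65-fold higher than in O group (1.40 ± 0.33, P = 0.00113, edgeR adjusted P = 0.225, exact P = 0.0159), and it passed P in each of the 10 fits that left out 1 library in both comparisons. With the leukocyte score as a covariate the log2 fold change was 0.31 ± 0.18 against C group (edgeR adjusted P = 0.96), which no longer passed, and 0.72 ± 0.28 against O group (edgeR adjusted P = 0.286), which did. With the score that leaves out neutrophil markers the values were 0.17 ± 0.16 and 0.15 ± 0.30, and neither passed.

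Cxcr5 had the smallest P of the receptors against C group. Its levels were 22.0, 14.6, 15.2, 17.8 and 15.04 CPM in C group platelets. Those of S group were 40.2, 21.4, 33.8, 24.1 and 45.8 CPM, and those of O group were 14.5, 12.4, 22.1, 10.9 and 17.8 CPM. A single library kept the groups from separating, since replicate 2 of S group lay just below replicate 1 of C group and replicate 3 of O group. The level in S group was 1.94-fold that of C group (0.95 ± 0.21, P = 0.000433, edgeR adjusted P = 0.746, exact P = 0.0159) and 2.08-fold that of O group (1.06 ± 0.26, P = 0.00151, edgeR adjusted P = 0.225, exact P = 0.0159). Cxcr5 also passed P in all 10 fits without 1 library in each comparison, and with the leukocyte score as a covariate (log2 fold change 0.64 ± 0.19 against C group, edgeR adjusted P = 0.960, and 0.62 ± 0.26 against O group, edgeR adjusted P = 0.322). With the score that leaves out neutrophil markers it passed against C group (0.52 ± 0.18, edgeR adjusted P = 0.984) and not against O group (0.15 ± 0.27).

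Cxcr4, the receptor of Cxcl12 that retains leukocytes in bone marrow, stood at 26.8, 15.4, 21.1, 26.1 and 24.7 CPM in C group platelets and at 54.2, 24.3, 43.7, 19.0 and 49.5 CPM in S group. In O group the values spread from 6.86 to 31.5 CPM. As for Ccr7, replicates 1, 3 and 5 of S group were above every library of the other groups and replicates 2 and 4 were within their range. Cxcr4 was 1.65-fold higher than in C group (0.72 ± 0.27, P = 0.0164, edgeR adjusted P = 0.746, exact P = 0.111) and 1.91-fold higher than in O group (0.94 ± 0.40, P = 0.0359, edgeR adjusted P = 0.333, exact P = 0.0714). Without replicate 1 of S group it missed the threshold against C group. Against O group it did so without replicate 1, 3 or 5 of S group or replicate 2 or 4 of O group. Adding the leukocyte score as a covariate gave log2 fold changes of 0.26 ± 0.26 and 0.10 ± 0.27, neither past the threshold, with edgeR adjusted P of 0.960 and 0.919. With the score that leaves out neutrophil markers they were 0.07 ± 0.23 and −0.32 ± 0.57.

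S1pr1 varied least between platelet pools. Its levels were 41.4, 31.6, 33.1, 36.0 and 43.0 CPM in C group, 43.3, 36.1, 42.7, 42.5 and 60.5 CPM in S group, and 28.3, 24.7, 30.2, 28.1 and 38.7 CPM in O group. Replicate 5 was the highest of S group, and 4 of the 5 O group libraries lay below every library of the other groups. Against O group the level in S group was 1.48-fold higher (0.56 ± 0.19, P = 0.0113, edgeR adjusted P = 0.279, exact P = 0.0159), and this passed P in all 10 fits without 1 library, but not with the score that leaves out neutrophil markers (0.27 ± 0.30). Against C group the log2 fold change was 0.27 ± 0.16 (95% interval −0.05 to 0.59, edgeR adjusted P = 0.776, exact P = 0.0794).

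Among the receptors of effector and mucosal lymphocytes, Cxcr3, which draws activated T cells and NK cells to interferon-induced chemokines, had 3.38, 2.14, 3.55, 3.11 and 2.07 CPM in C group platelets. In S group it had 8.66, 2.80, 3.60, 3.94 and 5.63 CPM, and in O group 3.77, 1.24, 3.81, 1.72 and 2.20 CPM. Replicate 1 of S group was the highest library, and replicate 2 lay within both other groups. Cxcr3 was 1.72-fold higher than in C group (0.78 ± 0.31, P = 0.0234, edgeR adjusted P = 0.752, exact P = 0.0635) and 1.95-fold higher than in O group (0.96 ± 0.39, P = 0.0291, edgeR adjusted P = 0.322, exact P = 0.0635). Without replicate 1 of S group the log2 fold changes were 0.48 and 0.65, and neither passed, nor did they with the score that leaves out neutrophil markers (0.38 ± 0.33 and 0.18 ± 0.57). Against C group it also missed the threshold without replicate 2 or 5 of C group, and against O group without replicate 5 of S group or replicate 2, 4 or 5 of O group.

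Ccr6, found on B cells and on T helper cells that make interleukin-17, had 5.28, 3.25, 2.48, 5.76 and 4.13 CPM in C group platelets and 5.95, 3.70, 5.88, 6.34 and 13.3 CPM in S group. Replicate 5 of S group stood far above the next library, which had 6.34 CPM, and the other 4 libraries of S group lay within or close to the ranges of C group and of O group (3.94 to 5.76 CPM). Ccr6 was 1.68-fold higher than in C group (0.75 ± 0.33, P = 0.0379, edgeR adjusted P = 0.769, exact P = 0.0794). Without replicate 5 of S group the log2 fold change was 0.38 and did not pass, and it also missed the threshold without replicate 2, 3 or 5 of C group and with the score that leaves out neutrophil markers (0.36 ± 0.36). Against O group it was 0.54 ± 0.31 (95% interval −0.06 to 1.14, edgeR adjusted P = 0.440, exact P = 0.183), and passed only without replicate 2 of S group. Ccr9, which directs lymphocytes to the small intestine, lay between 1.54 and 2.24 CPM in C group, 1.32 and 3.08 CPM in S group, and 1.04 and 1.94 CPM in O group. Its log2 fold change was 0.26 ± 0.29 against C group and 0.45 ± 0.31 against O group, and neither passed P.

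The receptors of monocytes were highest in replicate 5 of S group. Ccr2, which brings classical monocytes out of bone marrow, stood at 56.1, 14.1, 29.2, 25.2 and 21.6 CPM in C group platelets, at 25.2, 33.4, 27.1, 19.5 and 78.5 CPM in S group, and between 14.9 and 43.9 CPM in O group. Apart from replicate 5, S group lay within both other groups. The log2 fold change was 0.33 ± 0.39 against C group (95% interval −0.43 to 1.09) and 0.29 ± 0.38 against O group (−0.45 to 1.04), and without replicate 5 of S group it was −0.16 and −0.17. Cx3cr1 had 15.6, 4.70, 6.37, 9.47 and 9.10 CPM in C group, 10.5, 7.76, 15.4, 5.47 and 26.4 CPM in S group, and 9.42, 4.00, 9.57, 2.32 and 4.68 CPM in O group. Replicates 1, 3 and 5 of S group were above every O group library and replicates 2 and 4 were within their range. Cx3cr1 was 2.18-fold higher in S group than in O group (1.12 ± 0.46, P = 0.0325, edgeR adjusted P = 0.325, exact P = 0.0873). Without replicate 5 of S group the log2 fold change was 0.73 and did not pass, nor did it without replicate 3 of S group or replicate 2, 4 or 5 of O group, and with the score that leaves out neutrophil markers it was −0.57 ± 0.54. Against C group it was 0.53 ± 0.39 (edgeR adjusted P = 0.799, exact P = 0.413), and 0.09 without replicate 5 of S group.

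Ackr3 had 0.356, 1.07, 0.827, 1.39 and 1.87 CPM in C group platelets, 1.59, 1.75, 1.91, 1.95 and 0.678 CPM in S group, and 0.269, 1.01, 1.12, 1.56 and 1.19 CPM in O group. It ran against the other receptors in replicate 5 of S group, where it was lowest of its group, and in replicate 1 of C group, where Ccr2 was highest. Its log2 fold change was 0.49 ± 0.42 against C group (95% interval −0.34 to 1.33) and 0.54 ± 0.42 against O group (−0.28 to 1.36), with edgeR adjusted P of 0.820 and 0.569. Adding the leukocyte score as a covariate gave 1.12 ± 0.42 (edgeR adjusted P = 0.96) and 1.23 ± 0.46 (edgeR adjusted P = 0.277), both past the unadjusted threshold. With the score that leaves out neutrophil markers they were 1.16 ± 0.48, which passed, and 1.03 ± 0.66, which did not.

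**Figure D3:**
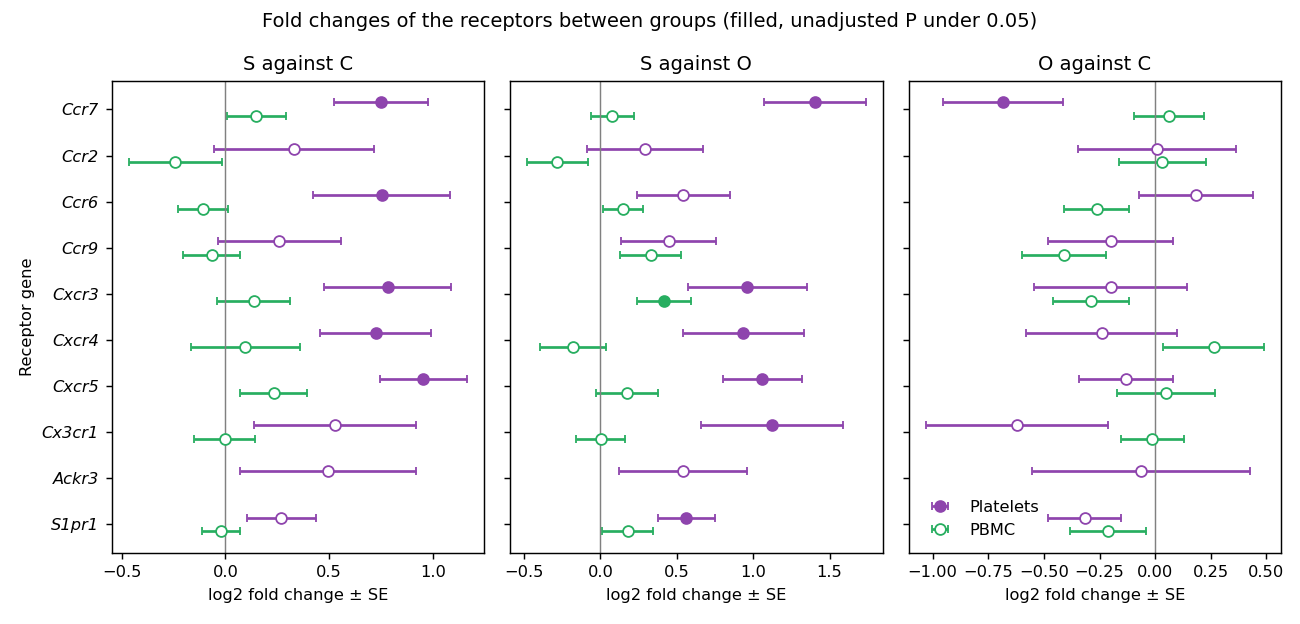
log2 fold change ± SE of each receptor in the 3 comparisons of groups, for platelets and PBMCs. Filled points have an unadjusted P below 0.05 in edgeR's test, which holds for 5, 6 and 1 receptors in platelets and 0, 1 and 0 in PBMCs. Ackr3 was not tested in PBMCs, where its counts were too low.

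Markers of several leukocytes were counted in the same comparisons of platelet libraries. Of the T cell markers, 5 of 14 were higher in S group than in C group platelets and 12 of 14 higher than in O group. For B cell markers these numbers were 4 and 7 of 10, for NK cell markers 2 and 4 of 8, for monocyte markers 1 and 4 of 11, and for dendritic cell markers 0 and 1 of 6, with 0 lower in each. NK cell markers summed to 67.2 to 118.2 CPM in C group, 71.4 to 160.2 in S group and 43.6 to 98.9 in O group, and monocyte markers to 1506 to 3369, 1108 to 2779 and 624.6 to 2313 CPM. The T cell list had a mean level of 4.94, 4.51, 4.87, 4.44 and 5.02 on the log2(CPM + 1) scale in S group platelets, so that replicates 1, 3 and 5 were again highest. Summed over the list, T cell markers reached 364.5 to 554.6 CPM in C group, 437.2 to 584.2 CPM in S group and 326.1 to 528.5 CPM in O group. B cell markers reached 760.7 to 884.3, 765.7 to 1571 and 434.6 to 860.9 CPM, with replicate 5 of S group highest. The T cell mean level was higher in S group than in C group by 0.36 (two-sided exact permutation test, P = 0.0476, adjusted over 60 tests P = 0.204) and than in O group by 0.76 (exact P = 0.00794, the smallest that 5 against 5 libraries allow, adjusted P = 0.136). Against C group no other leukocyte list passed the exact test, with P = 0.151 for B cells, 0.0635 for NK cells, 0.206 for monocytes, 0.619 for dendritic cells and 0.929 for neutrophils. Against O group the exact test gave P = 0.0318 for B cells, 0.0159 for NK cells, 0.0397 for dendritic cells, 0.0794 for monocytes and 0.238 for neutrophils. The score over all 60 leukocyte markers was higher in S group by 0.28 than in C group (exact P = 0.135) and by 0.39 than in O group (exact P = 0.0714), and neither passed. None of the T cell and B cell markers was at 0 in any platelet library, and the part of leukocyte RNA in the receptor differences was not tested beyond the fits with the scores. Platelet markers, erythroid markers and neutrophil markers had 0 genes past P between S group and C group, and 6 of 9 neutrophil genes tested were lower in S group than in O group. Against C group the log2 fold change was above 0 for 1 of 13 platelet markers (median −0.23) and 0 of 7 erythroid markers (median −0.62). It was above 0 for 4 of 8 neutrophil markers (median 0.01). Replicate 1 of O group stood apart, with 3660 CPM over neutrophil markers against 320.2 to 609.1 in the other 4 O group pools and 192.8 to 336.5 in S group, and it was also the library with 745600 CPM of erythroid markers. Without it the same 6 receptors passed in S against O and the same 1 in O against C.

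**Figure D4:**
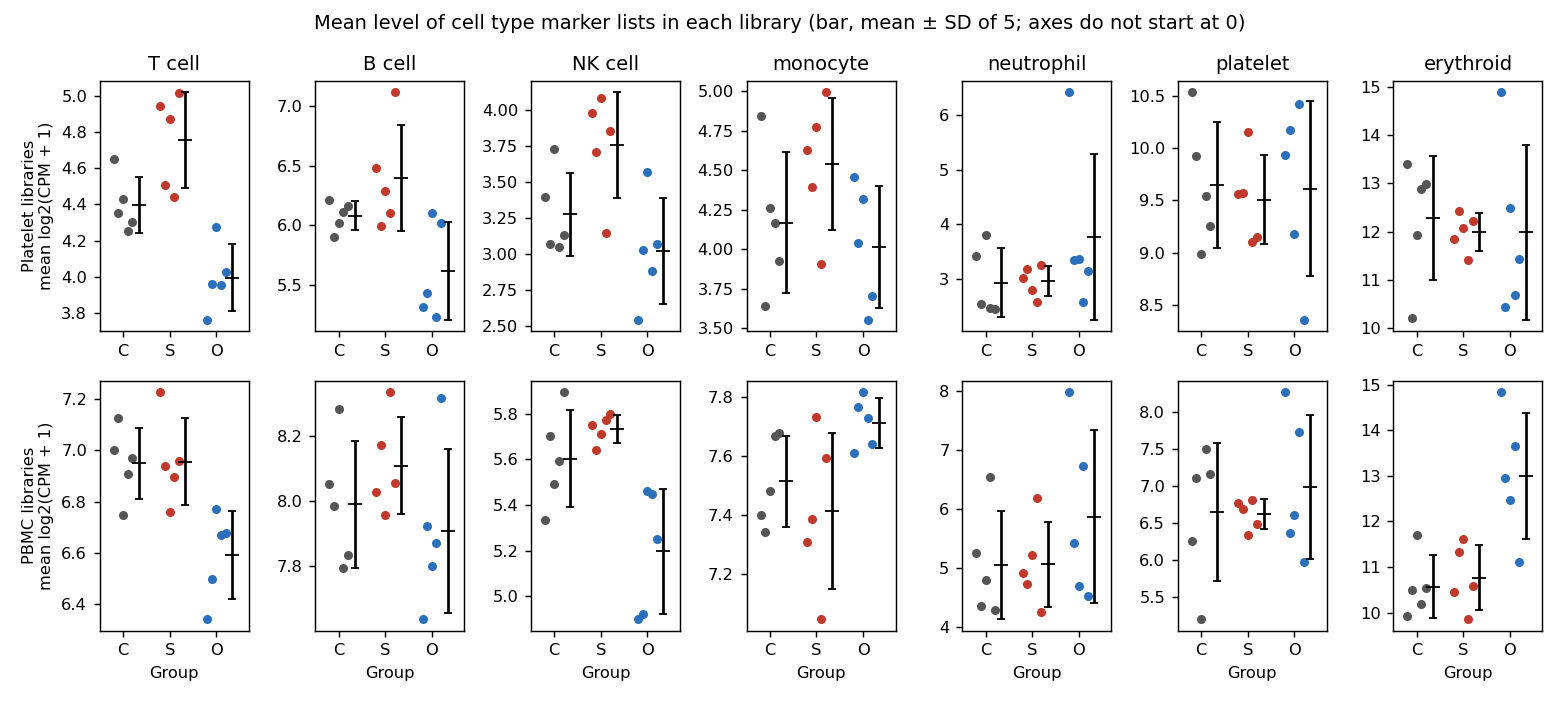
Mean log2(CPM + 1) of marker lists in each library, platelets above and PBMCs below, by group, with the mean ± SD of 5. In platelets the T cell list is highest in S group replicates 1, 3 and 5, between 4.87 and 5.02. In PBMCs its mean is 6.95 in C group, 6.96 in S group and 6.59 in O group.

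Between O group and C group platelets, Ccr7 alone of the 10 receptors passed P and 0 were higher. Among all 13270 genes tested, 2.17% were lower and 2.61% higher in O group. Ccr7 fell by 0.69 ± 0.27 on the log2 scale (P = 0.0256, edgeR adjusted P = 0.910, exact P = 0.0397), with 4 of 5 O group libraries below every C group library. Without replicate 2 of O group or replicate 1 of C group it missed the threshold. Ccr7 also passed with the leukocyte score as a covariate (−0.60 ± 0.22, edgeR adjusted P = 0.714). That score differed by −0.11 between O group and C group. The score that leaves out neutrophil markers, added after the data were seen, was lower in O group by 0.32 (exact P = 0.0476). With it Ccr7 was at −0.19 ± 0.24 and did not pass. Because this second score itself differed between the groups, its fit cannot tell leukocyte content from group, and the cause was not tested. The next lowest log2 fold changes were those of Cx3cr1 (−0.62 ± 0.41, exact P = 0.214) and S1pr1 (−0.32 ± 0.17, exact P = 0.0635), with edgeR adjusted P of 0.910 for both. S1pr1 passed the threshold without replicate 5 of O group (log2 fold change −0.43), with a block for replicate number (−0.33) and with voom (−0.35). For Ccr2 (0.01 ± 0.35), Ackr3 (−0.06 ± 0.49) and Ccr6 (0.18 ± 0.26) the 95% intervals reached from −0.68 to 0.70, from −1.02 to 0.90 and from −0.32 to 0.68. Cxcr4 (−0.24 ± 0.34), Ccr9 (−0.20 ± 0.28), Cxcr3 (−0.20 ± 0.34) and Cxcr5 (−0.13 ± 0.21) did not pass either. In the same comparison 5 of 14 T cell and 3 of 10 B cell markers were lower in O group, and 4 of 9 neutrophil markers were higher. The mean level was lower in O group by 0.40 for the T cell list (exact P = 0.0159), by 0.46 for the B cell list (exact P = 0.0635) and by 0.30 for the dendritic cell list (exact P = 0.0318).

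In PBMCs, where 9 of the 10 receptors were 1.54-fold to 5.53-fold more abundant, few differences between groups were seen. Of 9 receptors tested, 0 were higher and 0 lower in S group than in C group, against 1.23% and 1.41% of 15139 genes. Compared with O group, 1 was higher (Cxcr3) and 0 lower, against 4.43% and 7.80% of 14686 genes. Between O group and C group 0 were higher and 0 lower, where 7.56% of 14726 genes were higher and 4.39% lower. Ackr3 was not tested because its counts were too low for the filter.

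**Figure D5:**
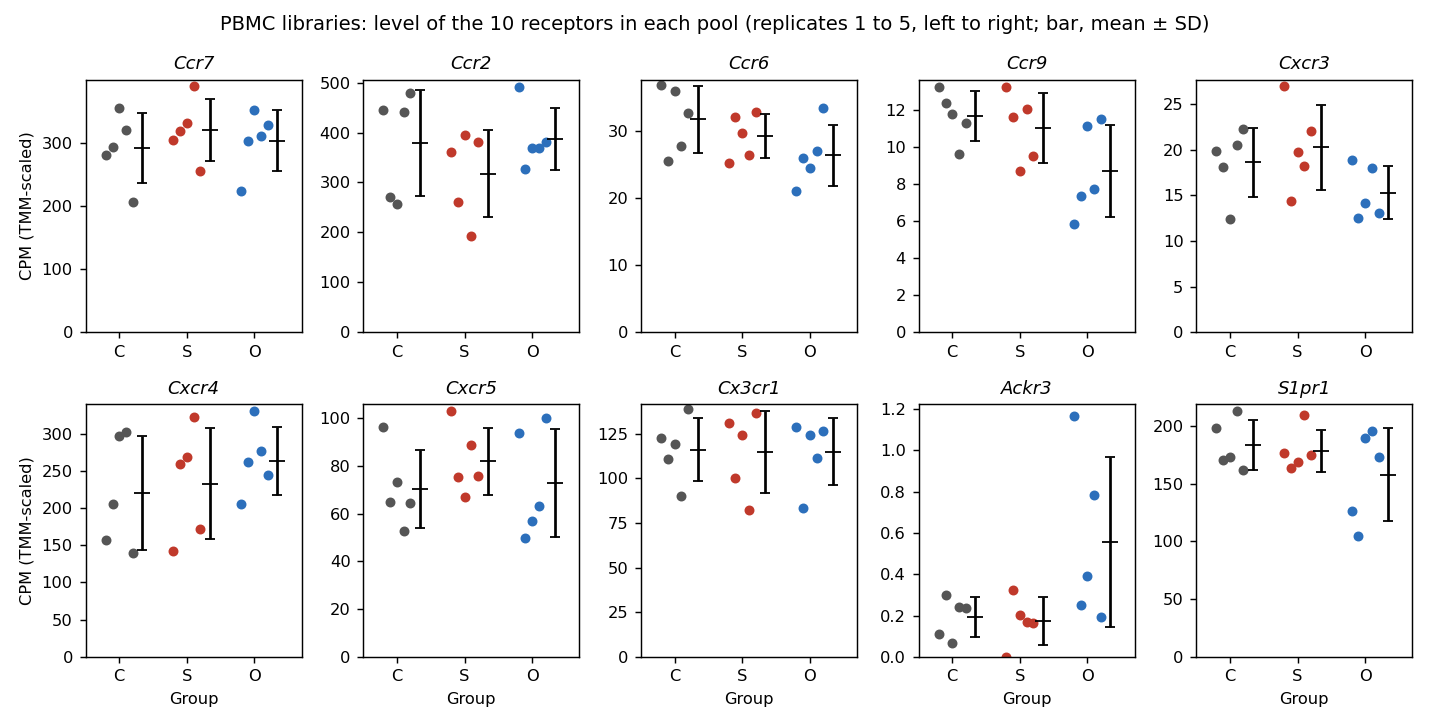
Level of each receptor in the 15 PBMC libraries, in TMM-scaled CPM, by group, drawn as for platelets. The 3 groups overlap for all 10 receptors, and Ackr3 stays at or below 1.17 CPM.

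Cxcr3 had 26.9, 14.4, 19.7, 18.2 and 22.0 CPM in S group PBMCs and 18.9, 12.5, 14.1, 17.9 and 13.0 CPM in O group. Its C group levels were 19.8, 18.0, 12.4, 20.5 and 22.2 CPM. Replicate 1 was the highest of S group, and replicates 2 and 4 lay within the range of O group. The level in S group was 1.33-fold that of O group (0.41 ± 0.18, P = 0.0398, edgeR adjusted P = 0.384, exact P = 0.0635). It missed the threshold without replicate 1, 3 or 5 of S group or replicate 2, 3 or 5 of O group. Without replicate 5 of O group Ccr6 and Ccr9 passed instead. Of the T cell markers 12 of 14, and of the NK cell markers 8 of 8, were higher in S group than in O group PBMCs, and 7 of 7 erythroid markers tested were lower (median log2 fold change −2.63). Erythroid markers summed to 30310 to 84870 CPM in S group and 61280 to 495400 CPM in O group. Summed over 8 NK cell markers, S group had 472.4 to 544.6 CPM and O group 263.2 to 436.6 CPM. Of the neutrophil markers 3 of 10 were lower in S group, and the mean level of the monocyte list was lower by 0.30 (exact P = 0.0397). Cxcr3 passed with the leukocyte score as a covariate and not with the score that leaves out neutrophil markers (0.51 ± 0.26). The other receptors did not pass, with log2 fold changes of 0.33 ± 0.20 for Ccr9, 0.18 ± 0.17 for S1pr1, 0.17 ± 0.20 for Cxcr5, 0.15 ± 0.13 for Ccr6, 0.08 ± 0.14 for Ccr7, 0.001 ± 0.16 for Cx3cr1, −0.18 ± 0.22 for Cxcr4 and −0.28 ± 0.20 for Ccr2.

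The width of the intervals in PBMCs did not follow abundance. For Ccr7 the levels were 280, 292, 355, 320 and 207 CPM in C group, 304, 318, 332, 390 and 255 CPM in S group, and 223, 303, 352, 310 and 328 CPM in O group. These ranges overlapped almost entirely, and S group differed from C group by 0.15 ± 0.14 on the log2 scale (95% interval −0.13 to 0.43). For S1pr1 the difference was −0.02 ± 0.09 (−0.20 to 0.16) and for Cx3cr1 −0.004 ± 0.15 (−0.29 to 0.28). Cxcr5 was at 0.23 ± 0.16 (−0.08 to 0.55) and passed P only without replicate 1 of C group (log2 fold change 0.38). Cxcr4 had the widest interval, 0.10 ± 0.26 (−0.42 to 0.61), with libraries from 139 to 323 CPM over C group and S group, and Ccr2 had the next largest SE (−0.24 ± 0.23). Cxcr3 was at 0.14 ± 0.18, Ccr9 at −0.07 ± 0.14 and Ccr6 at −0.11 ± 0.12. Ccr9 and Ccr6 were lowest in O group, with means of 8.71 ± 2.48 and 26.4 ± 4.58 CPM against 11.7 ± 1.35 and 31.7 ± 4.96 CPM in C group (SD, n = 5). The log2 fold changes of O group against C group were −0.41 ± 0.19 for Ccr9 (edgeR adjusted P = 0.429, exact P = 0.0635) and −0.26 ± 0.14 for Ccr6 (edgeR adjusted P = 0.483, exact P = 0.0952). Ccr9 passed P with DESeq2, with all genes kept, with all 3 groups in one fit and with the leukocyte score as a covariate, and without replicate 3 or 5 of O group or replicate 4 of C group. Ccr6 passed without replicate 5 of O group or replicate 2 of C group, and Cxcr3 (−0.29 ± 0.17) without replicate 3 of C group. The others were Cxcr4 (0.26 ± 0.23), Ccr7 (0.06 ± 0.16), Cxcr5 (0.05 ± 0.22), Ccr2 (0.03 ± 0.19), Cx3cr1 (−0.01 ± 0.14) and S1pr1 (−0.21 ± 0.17). Of the T cell markers 12 of 14, and of the NK cell markers 4 of 8, were lower in O group than in C group PBMCs. The mean level of the T cell list was lower by 0.36 on the log2(CPM + 1) scale (exact permutation test, P = 0.0159, adjusted over 60 tests P = 0.136) and that of the NK cell list by 0.41 (exact P = 0.0318, adjusted P = 0.173). Summed over the list, T cell markers had 1560 to 2060 CPM in C group and 1228 to 1598 CPM in O group, and NK cell markers 374.5 to 563.7 and 263.2 to 436.6 CPM. Erythroid markers were higher in O group PBMCs for 7 of 7 genes tested. The part of these cells in the receptor levels was not tested.

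Whether a group difference itself differed between platelets and PBMCs was tested as an interaction over all 30 libraries. Platelets and PBMCs came from layers of the same blood, so the tissues can share mice, while the labels do not tie a platelet pool to a PBMC pool and the fit treats the libraries as independent. Over genes, the deviations of same-numbered libraries of the 2 tissues from their group means had r from 0.0757 to 0.686 in O group, from −0.167 to 0.249 in C group and from −0.0999 to 0.272 in S group. With each same-numbered pair as a block, the receptors called were the same for the first 2 interactions below and between tissues, where all 10 passed, and Ccr7 was added for the last. For S group against C group, Ccr6 and Cxcr5 passed P (2 of 10), where 5.38% of 16498 genes did. For S group against O group, Ccr7, Cxcr4, Cxcr5, Cx3cr1 and Ackr3 passed (5 of 10), where 13.6% of genes did. For O group against C group 0 of 10 passed, where 6.59% of genes did. The direction of these calls over all genes depended on the scaling. For S against O 967 genes were higher and 1278 lower in platelets than in PBMCs, against 1383 and 631 with RLE size factors, and for O against C 641 and 447, against 348 and 625. With RLE the value of Ccr7 in S against O was 1.36, and it passed for O against C too. The difference of Ccr7 was 1.22 ± 0.33 on the log2 scale (S against O, edgeR adjusted P = 0.175), and it passed P in each of 30 fits without 1 library. Cxcr5 differed by 0.68 ± 0.30 for S against C and by 0.76 ± 0.30 for S against O, with edgeR adjusted P of 0.907 and 0.276. The former missed the threshold without platelet replicate 2, 3 or 5 of C group or 1 or 5 of S group, or PBMC replicate 1 of C group or 2 or 3 of S group, and the latter without PBMC replicate 5 of O group. Cxcr4 differed by 1.02 ± 0.43 (edgeR adjusted P = 0.297) and Cx3cr1 by 1.02 ± 0.47 (edgeR adjusted P = 0.333) for S against O. Cxcr4 was lost without replicate 1 of S group of either tissue. Without platelet replicate 5 of S group the value for Cx3cr1 was 0.62 and did not pass, and it also missed the threshold without platelet replicate 2 or 4 of O group or PBMC replicates 2 or 4 of S group or 3 or 5 of O group. The value for Ccr6, 0.81 ± 0.33 for S against C (edgeR adjusted P = 0.887), was 0.48 without that library, and without it 0 of 10 receptors passed in S against C. The value for Ackr3, 1.95 ± 0.77 (edgeR adjusted P = 0.273), rests on 0 to 9 counts per PBMC library, and without PBMC replicate 1 of O group, which had 9, it was 1.57 and did not pass. The receptors that did not pass lay between 0.26 and 0.64 for S against C, between −0.0005 and 0.45 for S against O and between −1.31 and 0.55 for O against C. Interaction values share libraries with the comparisons above.

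Other genes of the same pathways were read from lists chosen by name, and their counts stand against the shares of all genes given above (4.29% higher and 2.13% lower in S against C, 7.23% and 6.67% in S against O). In a list of 10 genes a single call is not far from such a share. The genes named below had edgeR adjusted P between 0.746 and 0.769 in S against C and between 0.225 and 0.356 in S against O. Of the other chemokine receptors, 1 of 10 tested was higher in S group than in C group platelets, Cxcr6 (log2 fold change 1.42 ± 0.50, edgeR adjusted P = 0.746), a receptor of tissue-resident and effector T cells. Against O group 3 of 9 were higher, among them Cxcr6 (1.70 ± 0.50) and Xcr1 (0.94 ± 0.33), and 1 was lower (Ccr1 −1.59 ± 0.72), with edgeR adjusted P between 0.258 and 0.356. In the list of sphingosine-1-phosphate receptors, enzymes and transporters, 3 of 11 were higher than in C group and 0 lower. These were S1pr4 (0.56 ± 0.21), S1pr5 (0.73 ± 0.29), both receptors of lymphocytes, and Sgpl1 (0.76 ± 0.33), the lyase that degrades the lipid. Against O group 5 of 12 were higher and 0 lower, among them S1pr5 (1.19 ± 0.36), S1pr4 (0.95 ± 0.29) and the transporter Spns2 (0.62 ± 0.16). Of the homing adhesion molecules, 3 of 11 were higher in each comparison, namely Icam1 (0.85 ± 0.28 against C group, 1.31 ± 0.26 against O group), Icam2 (0.68 ± 0.19 and 1.27 ± 0.26) and Itgb7 (0.89 ± 0.31 and 1.31 ± 0.34). Icam1 and Icam2 are ligands of leukocyte integrins, and Itgb7 is a chain of the integrin that binds gut vessels. Of 21 signalling genes downstream of the receptors, 2 were higher than in C group (Pik3r5 and Rgs14) and 0 lower, and 3 were lower than in O group (Gnai3, Pik3cg and Rgs2) and 0 higher. The other receptors of chemoattractants split in S group against O group, with 2 of 7 higher (Cmklr1 1.24 ± 0.42 and Gpr183 0.71 ± 0.29) and 2 lower (Ltb4r1 −1.83 ± 0.61 and Fpr2 −1.67 ± 0.68). Ccr1, Sgpl1, Gpr183, Fpr2, Gnai3, Pik3cg and Rgs2 were named after their values were seen, since the lists they stand for gave few genes. Median log2 fold changes in S against O were −0.27 for the other chemokine receptors, 0.53 for the sphingosine-1-phosphate list and 0.50 for adhesion molecules, against −0.01 over all genes. They were −1.15 for the other receptors of chemoattractants and −0.11 for the signalling genes.

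RNA of the chemokine ligands was mostly low in both tissues, and ligand protein was not measured. Of 14 ligand genes, 3 were tested in S group against C group platelets and 4 against O group, and 0 passed P. Cxcl12, the ligand of Cxcr4 and Ackr3, had the highest mean level of the ligands in platelets. It had 20 to 500 counts in platelet libraries and 0 to 15 in PBMC libraries, and scaled together it stood at 20.6 ± 8.63 CPM in platelets and 0.153 ± 0.149 in PBMCs (SD, n = 15, log2 difference 6.95 ± 0.34, edgeR adjusted P = 1.63e-19). Other ligands were higher in PBMCs than Cxcl12 was there, among them Ccl25, the ligand of Ccr9, with 41 to 160 counts per PBMC library (mean 7.19 CPM), and Cxcl10, a ligand of Cxcr3, with 34 to 167 (mean 7.06 CPM), both named after their values were seen. Ccl19, a ligand of Ccr7, had 0 counts in 30 of 30 libraries.

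The genes whose levels followed a receptor most closely were found by Pearson's r of log2(CPM + 1) after group means were removed, over the 15 libraries of a tissue and all genes with a mean of at least 1 CPM. These values describe the libraries, which share the cell mixture and its scaling. In platelets the nearest to Ccr7 were Fcmr (r = 0.953), Thy1 (0.937) and Cd79a (0.936), and the nearest to Cxcr5 were Fcer2a (0.966), Thy1 (0.952) and Atg16l2 (0.936). Cd79a and Fcer2a stand in the B cell list used above. Ccr2 was followed by Ms4a6c (0.968), a monocyte marker of the list, and by Gpr141 (0.945) and Tmem87a (0.942), and Cx3cr1 by Adgre4 (0.969), Fcgr2b (0.963) and Plxnb2 (0.963). Cxcr3 was nearest to Cxcr6 (0.851), Fcho1 (0.850) and Tbrg4 (0.842), Cxcr4 to Zbtb48 (0.937), Rsrp1 (0.930) and Acp5 (0.921), Ccr6 to Atp8b2 (0.953), Srrm2 (0.933) and Rtel1 (0.926), and S1pr1 to Med1 (0.910), St8sia1 (0.883) and Ugcg (0.870). Ccr9, with few counts, reached 0.796 (Pradc1), 0.792 (Ss18l2) and 0.771 (Fancg). Ackr3 was nearest to Adgrf5 (0.963), Cdh5 (0.950) and Cyp4b1 (0.945). Cdh5 encodes VE-cadherin, the junction protein of endothelial cells. It ranged from 2.29 to 21.4 CPM in platelet libraries and from 0.259 to 1.95 CPM in PBMC libraries. A list of 10 endothelial genes, written after these neighbours were seen and therefore not tested, summed to 107.5 to 164.7 CPM in C group, 68.5 to 197.3 CPM in S group and 68.1 to 151.7 CPM in O group platelets, against 11.1 to 20.4 CPM over all PBMC libraries. All 10 had counts in every platelet library. The largest of them, Tie1 (mean 41.7 CPM in platelets), did not follow Cdh5 in every library. It had 54.4 CPM in replicate 1 of C group, where Cdh5 had 6.35. In replicate 5 of O group it had 17.7 CPM, where Cdh5 had 14.0. The part of the listed genes in the Ackr3 level was not tested.

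Among the receptors themselves, the highest r in platelets was that of Ccr7 with Cxcr5 (0.924), then Ccr7 with Cxcr4 (0.882) and Ccr2 with Cx3cr1 (0.866), and the lowest was that of Ccr2 with Ackr3 (−0.802). In PBMCs Ccr7 with Cxcr4 reached 0.806 and Ccr7 with Ccr2 −0.668. In PBMCs the nearest genes were St14, Sdc4 and Neil1 for Ccr7 (r between 0.887 and 0.905), Naaa, Rnpep and Kdelc2 for Ccr2 (0.919 to 0.945), and Hhex, Il16 and Card6 for Cxcr5 (0.921 to 0.961). Ccr6 was nearest to Ciita (0.878), Cr2 (0.866), a B cell marker of the list, and Pou2f2 (0.865). Cxcr4 was nearest to AW554918, Cep135 and Birc3 (0.912 to 0.945), Cxcr3 to Dmac1, Lamtor1 and Zfp414 (0.919 to 0.958), Cx3cr1 to Nxpe1-ps, Slc46a3 and Acsl5 (0.877 to 0.924), Ccr9 to Nt5c3b, Prpsap1 and Hdac7 (0.904 to 0.933), and S1pr1 to Drg2, Il21r and Ly6a (0.885 to 0.900). Ackr3, with 0 to 9 counts, was nearest to Acad12, Sgce and Lrrc28 (0.934 to 0.957).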

How the data were processed

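RNA was sequenced from 15 platelet and 15 PBMC libraries, 5 pools per group and tissue, after poly-A selection with a kit that does not keep strand. The deposited tables hold raw counts per gene that the authors made from reads. The submitters' processing notes name HISAT2 2.0.5, featureCounts 1.5.0-p3, DESeq2 1.16.1 and mm9. The cell type tag of platelet libraries reads PBMC, and titles were used. 0 columns belonged to no sample. Positions came from GENCODE M21 (54409 of 54532 identifiers matched).

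Counts were fitted in R 4.3.3 with edgeR 4.0.16 (TMM, filterByExpr, quasi-likelihood test) in the 2 groups compared, and over 30 libraries for tissue and interaction. SE is the log2 fold change divided by the square root of F, and intervals use 1.96 SE. Benjamini-Hochberg adjustment ran over all genes tested. P-values measure the spread between pools. Alternatives were DESeq2 1.42.0, voom with limma 3.58.1, RLE factors, no filter, all 3 groups, a replicate block, the leukocyte score, each library left out and, added after the data were seen, that score without neutrophil markers and an exact permutation test over 57 receptor comparisons. No 2 libraries of a group were duplicates (lowest chi-square per gene 11.68 over 60 pairs). PBMC libraries of S group and C group with the same number deviated together (r between 0.289 and 0.574 in 5 pairs, and 10 of 10 libraries closest to their own number), and the fit with the block called 0 receptors, as without it.

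All 10 receptors were to be named in each comparison (in interactions, those past P, with the range of the others). Of pathway lists at most 12 genes with the smallest P below 0.05 were named, and for each receptor the 3 genes with the highest r. The receptors and lists were chosen with earlier results of these data known.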

Additional observations from a re-analysis of the deposited data

Results flagged for a closer look

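Of 60 groups of 5 libraries, 4 held a library set apart from the others by Dixon's test, where chance gives about 1 in 20. In S group platelets replicate 5 was apart for Ccr2 (78.5 CPM, against 19.5 to 33.4 in the other 4), Ccr6 (13.3 CPM, against 3.70 to 6.34) and Ackr3 (0.678 CPM, against 1.59 to 1.95). In S group PBMCs replicate 4 was apart for S1pr1 (210 CPM, against 163 to 177).

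For 7 values the difference between groups itself differed between platelets and PBMCs at an unadjusted P below 0.05 in edgeR's test, with adjusted P between 0.175 and 0.907. In S group against C group these were Ccr6 (0.81 on the log2 scale) and Cxcr5 (0.68). In S group against O group they were Ccr7 (1.22), Cxcr4 (1.02), Cxcr5 (0.76), Cx3cr1 (1.02) and Ackr3 (1.95, with 0 to 9 counts per PBMC library).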

How the results depend on the processing

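Calls below are receptors past an unadjusted P of 0.05. With the leukocyte score as a covariate, platelets gave 2 calls for S against C and 3 for S against O, and PBMCs 1 for O against C. With the exact permutation test, added after the data were seen, platelets gave 1 call for S against C and 3 for S against O, and PBMCs 0 for S against O. Platelet O against C gave 2 calls with voom and 2 with the replicate block. Apart from these, S1pr1 being added, and Ccr7 in the difference between tissues below, the block left the called receptors the same. PBMC S against O gave 2 calls with DESeq2 and 2 with all genes kept, Ackr3 being added with 0 to 9 counts per library. PBMC O against C gave 2 calls with DESeq2, 2 with all genes kept (Ccr9 and Ackr3 in both), 2 with voom (Cxcr3 and Cxcr4) and 1 with all 3 groups. The difference between tissues of O against C gave 1 call (Ccr7) with DESeq2, 1 with RLE, 1 with all genes kept and 1 with the block. The causes were not tested.

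Over fits without 1 library, calls ranged from 3 to 5 for platelet S against C, 3 to 7 for S against O and 0 to 2 for O against C, and in PBMCs from 0 to 1, 0 to 2 and 0 to 2. They stayed at 10 between tissues, and ranged from 0 to 4, 3 to 6 and 0 to 1 for the differences between tissues. Marker list tests past P ranged from 11 to 17, against 14.

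With the leukocyte score that leaves out neutrophil markers, added after the data were seen, calls were 2, 0 and 0 in platelets and 0, 0 and 0 in PBMCs (S against C, S against O, O against C). Over all genes it called 280 higher and 60 lower in platelet S against O, 91 and 178 in O against C, and in PBMCs 231 and 232 in S against O and 320 and 295 in O against C. For S against C its calls over all genes are not given here. Signs turned with it in platelets for Ccr2 (−0.40), Ccr9 (−0.0137) and Cx3cr1 (−0.45) in S against C, for Ccr2 (−0.82), Ccr6 (−0.21), Ccr9 (−0.0715), Cxcr4 (−0.32) and Cx3cr1 (−0.57) in S against O, and for Cxcr3 (0.21), Cxcr4 (0.0964), Cxcr5 (0.25) and Cx3cr1 (0.0477) in O against C. In PBMCs they turned for S1pr1 (0.0068) in S against C, for Ccr7 (−0.13), Ccr6 (−0.0927), Ccr9 (−0.0794), Cx3cr1 (−0.11) and S1pr1 (−0.12) in S against O, and for Ccr2 (−0.0813), Cxcr5 (−0.0984) and Cx3cr1 (0.0554) in O against C.

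Under the other alternatives signs turned only for receptors that were not called. With the leukocyte score, platelet Ccr2 was at −0.30 and Cx3cr1 at −0.22 against C group, Ccr2 at −0.49 in S against O, PBMC Cx3cr1 at 0.0178 in S against C and −0.0018 in S against O. Cx3cr1 in PBMC S against O was also −0.0013 (DESeq2), −0.0054 (RLE), −0.0069 (block) −0.0016 (3 groups) and −0.0088 (mean log2 levels). With voom, PBMC Ccr6 was 0.0337 and Cxcr3 −0.002 in S against C, Ccr7 −0.072 in S against O and Cxcr5 −0.0809 in O against C. Without 1 library, platelet Ccr2 ranged from −0.16 to 0.66 (S against C), −0.17 to 0.48 (S against O) and −0.17 to 0.39 (O against C), and Ackr3 from −0.27 to 0.21 (O against C). In PBMCs S against C, Ccr9 ranged from −0.15 to 0.0068, Cxcr3 from −0.0024 to 0.24, Cxcr4 from −0.052 to 0.23, Cx3cr1 from −0.0881 to 0.0938 and S1pr1 from −0.087 to 0.0318. In S against O, Ccr7 ranged from −0.0151 to 0.14 and Cx3cr1 from −0.10 to 0.10. In O against C, Ccr7 ranged from −0.0387 to 0.15, Ccr2 from −0.0782 to 0.13, Cxcr5 from −0.10 to 0.20 and Cx3cr1 from −0.0939 to 0.0828.

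Over all genes, platelet S against C gave 569 higher and 283 lower in the fit reported, 760 and 443 with DESeq2, 1291 and 806 with all genes kept, 1074 and 1007 with voom and 303 and 276 with the leukocyte score. S against O gave 962 and 887, 1759 and 1372 with all genes kept, 1073 and 472 with the block and 679 and 1164 with the leukocyte score. O against C gave 347 and 288, 826 and 721 with all genes kept, 611 and 343 with 3 groups and 339 and 524 with the block. PBMC S against C gave 186 and 214, 1157 and 355 with all genes kept, 332 and 301 with voom and 378 and 273 with the block. The differences between tissues with all genes kept gave 1074 and 1082 for S against C (549 and 338 as reported), 2200 and 927 for S against O and 616 and 1259 for O against C, and with DESeq2 797 and 537, 1685 and 877, and 538 and 869. Apart from PBMC S with C, not every same-numbered pair had r over 0.1. The median r was 0.347 in platelet O with C (7 of 10 libraries closest to their own number), 0.259 in PBMC S with O (8 of 10), 0.123 in PBMC O with C (2 of 10) and 0.104 in platelet S with C and S with O (0 of 10 in each), a hint from the data and not from the design. Pools of several mice, 5 per group, and few counts for Ackr3 and Ccr9 limit what could be detected.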
